A study of Mus musculus with 6 samples.

Results

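Non-collagen genes of the extracellular matrix were followed in KP1 cells that received an active form of Notch1. The set holds 39 listed genes for adhesive and matricellular glycoproteins, basement membrane and elastic fibre components, proteoglycans, lysyl oxidases and matrix-bound inhibitors. A gene was measured by the probe set that carried its symbol alone, the brightest by the mean over 6 arrays where there were several. By this rule 34 of the 39 were measured among 22180 genes in all, and the 5 others (Spp1, Fbn1, Efemp2, Loxl2 and Serpine2), for which the annotation gives no single-symbol probe set, were not analysed here. KP1 is a mouse small cell lung cancer line, derived from a tumor model deficient in Rb, p53 and p130, so both groups share these losses. The 3 N1ICD arrays come from cells transfected with Notch1-ICD-ires-GFP and the 3 control arrays from cells transfected with the empty ires-GFP vector. In both groups GFP+ cells were collected by FACS at 48 hours, and total RNA went onto 1 Mouse Gene 2.0 ST array per sample. The labels number 3 biological replicates in each group without naming separate cultures, so p-values measure the spread between these samples. All cells are of 1 line, and the vector, not the endogenous receptor, drives N1ICD.

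Matrix glycoproteins are secreted, multidomain proteins that link cells to collagen networks. Adhesive members such as fibronectin and vitronectin bind integrins, and matricellular members such as tenascins, thrombospondins and SPARC alter how cells spread and respond to growth factors rather than bearing load. Lysyl oxidases crosslink collagen and elastin chains. In small cell lung cancer, matrix around the tumor cells is known to affect adhesion and survival, and the intracellular domain of Notch1 acts in the nucleus with the DNA-binding protein RBPJ.

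Of the 34 measured genes, 10 rose and 2 fell in N1ICD cells (limma, Benjamini-Hochberg adjusted p under 0.05 over all 22180 genes), which is 29.4% higher and 5.88% lower. Over all genes the same test called 3.82% higher and 3.27% lower, 7.1% in either direction. The median log2 change was 0.30 over the 34 genes and -0.02 over all genes. The members were chosen with earlier results of these arrays known, and several of the largest rises were already known, so these shares describe the list and are no independent support. Among the rises, 5 were more than 8-fold (Vtn, Tnc, Olfml2a, Sparc and Matn2), and Fbn2 and Tnr were also above 2-fold. Of all 22180 genes, 40 passed the test with a rise above 8-fold, and 428 with a change above 2-fold in either direction. The N1ICD and control arrays did not overlap for 21 of the 34 genes (61.8%), against 26.1% of all genes. Per-array medians over all genes lay between 6.14 and 6.24 in log2 units, arrays within a group correlated across genes at 0.991 to 0.994 and between groups at 0.980 to 0.984. Genes are not independent replicates, so these correlations only describe the arrays. Notch1 itself measured 8.07, 7.49 and 7.72 in N1ICD arrays, against 6.35, 6.20 and 5.96 in control arrays (limma adjusted p = 0.000889).

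**Figure D1:**
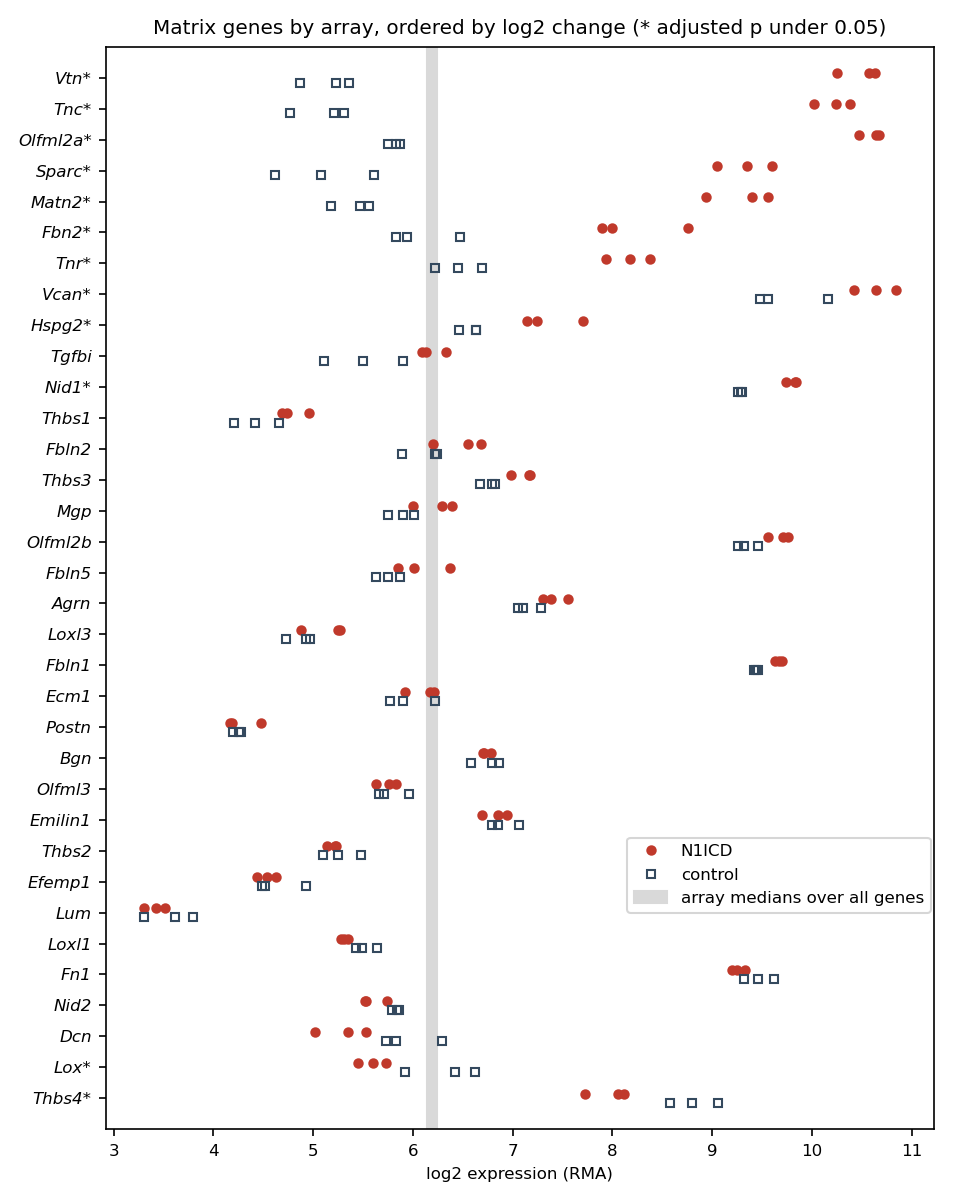
Log2 expression (RMA) of the 34 measured matrix genes on each array, with N1ICD arrays as filled circles and control arrays as open squares, ordered from the highest log2 change at the top (Vtn, 5.34) to the lowest (Thbs4, -0.85). The grey band spans the array medians over all genes, 6.14 to 6.24, and stars mark the 12 genes past the test.

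The upstream sequence of 4 of the genes with the largest rises is shown to let it be read against the motif that RBPJ, the DNA-binding partner of N1ICD, recognises. The sequences are from RefSeq for build GRCm38.p6, each 250 bases before a transcription start, read 5′ to 3′ on the gene's strand. Capitals mark TGGGAA, the core of the RBPJ site, or its reverse complement. The regions are Vtn chr11:78498870-78499119, plus strand, Tnc chr4:64047016-64047265, minus strand, Olfml2a chr2:38931730-38931979, plus strand and Sparc chr11:55420081-55420330, minus strand.
Vtn: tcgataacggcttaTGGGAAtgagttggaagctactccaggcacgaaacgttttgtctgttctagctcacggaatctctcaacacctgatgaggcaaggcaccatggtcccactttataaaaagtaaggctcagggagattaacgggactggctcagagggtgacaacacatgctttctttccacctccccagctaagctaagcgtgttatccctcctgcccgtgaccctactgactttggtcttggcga
Tnc: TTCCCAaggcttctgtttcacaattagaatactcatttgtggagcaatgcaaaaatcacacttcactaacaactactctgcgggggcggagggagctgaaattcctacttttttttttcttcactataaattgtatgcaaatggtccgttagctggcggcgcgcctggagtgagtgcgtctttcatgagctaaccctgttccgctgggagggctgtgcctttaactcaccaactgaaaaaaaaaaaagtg
Olfml2a: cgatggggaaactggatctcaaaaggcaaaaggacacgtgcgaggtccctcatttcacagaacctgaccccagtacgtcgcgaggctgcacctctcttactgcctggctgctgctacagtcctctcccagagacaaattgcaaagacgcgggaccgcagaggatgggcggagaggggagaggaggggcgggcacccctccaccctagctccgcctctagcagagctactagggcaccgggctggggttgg
Sparc: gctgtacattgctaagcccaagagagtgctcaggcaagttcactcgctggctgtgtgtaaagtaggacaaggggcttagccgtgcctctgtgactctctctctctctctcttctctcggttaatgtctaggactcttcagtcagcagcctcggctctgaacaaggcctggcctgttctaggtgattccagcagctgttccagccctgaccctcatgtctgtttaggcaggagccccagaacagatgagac
Vtn and Tnc each hold 1 such core in these bases, while Olfml2a and Sparc hold 0.

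Windows of 250 bases before to 50 after a start were matched for 27 of the 39 members, 8 of them among the 10 that rose. TGGGAA on either strand occurred for 6 of these 8 genes and for 6 of 14 members that did not pass the test. Of all 27025 genes with a window, 7651 held it. By window, it was in 7 of 9 (77.8%), 6 of 18 (33.3%) and 25.6% of 32851, in the same order. Some genes have overlapping windows, and the pair of Tnc windows share a site. The longer GTGGGAA, added after the first search, was found in windows of Tnc, Vcan and Hspg2 among the rises, in that of Thbs4, which fell, in 1 of 18 windows of members that did not pass the test (5.56%), that of Olfml2b, in that of Fbn1, which was not measured, and in 6.38% of all windows. E-boxes (CANNTG) were in 66.7% of the windows of members that rose against 72.3% of all windows. The AP-1 motif TGANTCA was in 0 of the 9 windows of members that rose and in 7.81% of all windows. The TEAD motif GGAATG was in 22.2% of the windows of members that rose and 14.7% of all windows, and in Vtn both TEAD matches overlap a TGGGAA core. A match describes the letters of the window and does not show binding. The surroundings of the remaining matches in changed genes follow, that of Tnc spanning its upstream start, with the core in capitals, at Tnc chr4:64047002-64047027, minus strand, Vtn, first site after the start chr11:78499121-78499146, plus strand, Vtn, second site after the start chr11:78499148-78499169, plus strand, Vcan chr13:89742684-89742709, minus strand, Hspg2 chr4:137468760-137468785, plus strand, Tnr chr1:159523720-159523745, plus strand, Nid1 chr13:13437434-13437459, plus strand and Thbs4 chr13:92795016-92795041, minus strand.
Tnc: aaaaaaaaagTGGGAAaggatgtctg
Vtn, first site after the start: ggttttctgtTTCCCAgctctcctgg
Vtn, second site after the start: gctggggttcTGGGAAtgtgac
Vcan: tggggatgggTGGGAAggcagttgtt
Hspg2: gggtggggggTGGGAAagaggcgagc
Tnr: tgtagaaggcTGGGAAaaaaacagct
Nid1: tccggaatgcTGGGAAccaacgccca
Thbs4: tgcccaccccTTCCCActgtccacct
The core lies on the gene's own strand in all of these but Thbs4 and the first Vtn site after the start.

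The counts by role that follow split the same chosen list into few genes each. Over all genes 3.82% rose and 3.27% fell. Among the adhesive glycoproteins, 2 of 5 rose, and these rises were large. Vtn encodes vitronectin, an integrin ligand of blood plasma and matrix. It measured 10.25, 10.58 and 10.63 in N1ICD arrays, against 5.23, 4.86 and 5.36 in control arrays. Every N1ICD array lay more than 4 log2 units above every control array, and the fold change was 40.4 (log2 change 5.34 ± 0.16 SE, adjusted p = 1.13e-06), the 5th largest rise of all genes. Matn2 encodes matrilin 2, an adaptor that bridges matrix filaments, and measured 8.94, 9.40 and 9.56 in N1ICD arrays, against 5.47, 5.18 and 5.56 in control arrays. The groups stood well apart, with a 14.9-fold rise (3.89 ± 0.18, adjusted p = 8.71e-06). Fn1, the fibronectin gene, measured 9.33, 9.20 and 9.24 in N1ICD arrays, against 9.62, 9.32 and 9.46 in control arrays. The Fn1 groups overlapped, and the log2 change of -0.21 had a 95% interval from -0.46 to 0.04 (adjusted p = 0.332). Tgfbi, a protein that links collagens to integrins, averaged 6.18 ± 0.13 in N1ICD arrays and 5.50 ± 0.40 in control arrays (SD, n = 3 each). The Tgfbi groups did not overlap, but the log2 change of 0.68 did not pass the test (adjusted p = 0.0737). It passed without control replicate 1 (adjusted p = 0.019). Ecm1 had a log2 change of 0.14 ± 0.14 (adjusted p = 0.671).

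Of 8 measured matricellular genes, 3 rose and 1 fell. Tnc encodes tenascin C, a protein of embryonic, wounded and tumor matrix, and measured 10.24, 10.02 and 10.38 in N1ICD arrays, against 5.21, 5.31 and 4.77 in control arrays. It rose 34.8-fold (5.12 ± 0.16, adjusted p = 1.4e-06). Its relative Tnr, the tenascin of the nervous system, measured 8.18, 7.94 and 8.38 in N1ICD arrays, against 6.22, 6.45 and 6.70 in control arrays. Tnr rose 3.27-fold (1.71 ± 0.16, adjusted p = 0.000446), and its groups were also apart. Sparc encodes a collagen-binding matricellular protein and measured 9.60, 9.05 and 9.35 in N1ICD arrays, against 4.62, 5.07 and 5.61 in control arrays. Its control arrays spread over about 1 log2 unit, less than the distance between the groups, and it rose 18.8-fold (4.23 ± 0.25, adjusted p = 3.41e-05).

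Of the 4 thrombospondins, 1 fell and 3 did not pass the test. Thbs4, a pentameric thrombospondin found in muscle, tendon and nervous tissue, measured 8.12, 7.72 and 8.06 in N1ICD arrays, against 9.06, 8.58 and 8.80 in control arrays. All N1ICD arrays were lower, and Thbs4 fell by 0.85 on the log2 scale (SE 0.16, adjusted p = 0.0155), a call lost without N1ICD replicate 2 (adjusted p = 0.0563). Thbs3, another pentameric thrombospondin, had 7.17, 7.16 and 6.99 in N1ICD arrays, against 6.79, 6.82 and 6.67 in control arrays. Its log2 change of 0.34 did not pass the test (adjusted p = 0.088). The trimeric, antiangiogenic Thbs1 (0.37 ± 0.14, adjusted p = 0.179) and Thbs2 (-0.08 ± 0.12, adjusted p = 0.774) did not pass it either, nor did periostin, Postn (0.03 ± 0.11, adjusted p = 0.932).

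The olfactomedin-like genes encode secreted glycoproteins with an olfactomedin domain, and 1 of 3 rose. Olfml2a measured 10.67, 10.64 and 10.47 in N1ICD arrays, against 5.75, 5.83 and 5.88 in control arrays. The arrays of each group lay close together, and the rise was 27.5-fold (4.78 ± 0.10, adjusted p = 3.21e-07). Olfml2b, its paralog, measured 9.56, 9.76 and 9.71 in N1ICD arrays, against 9.26, 9.46 and 9.32 in control arrays. The Olfml2b groups did not overlap, but its log2 change of 0.33 (95% interval 0.09 to 0.57) did not pass the test (adjusted p = 0.112). Olfml3 had a log2 change of -0.04 ± 0.11 (adjusted p = 0.916).

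**Figure D2:**
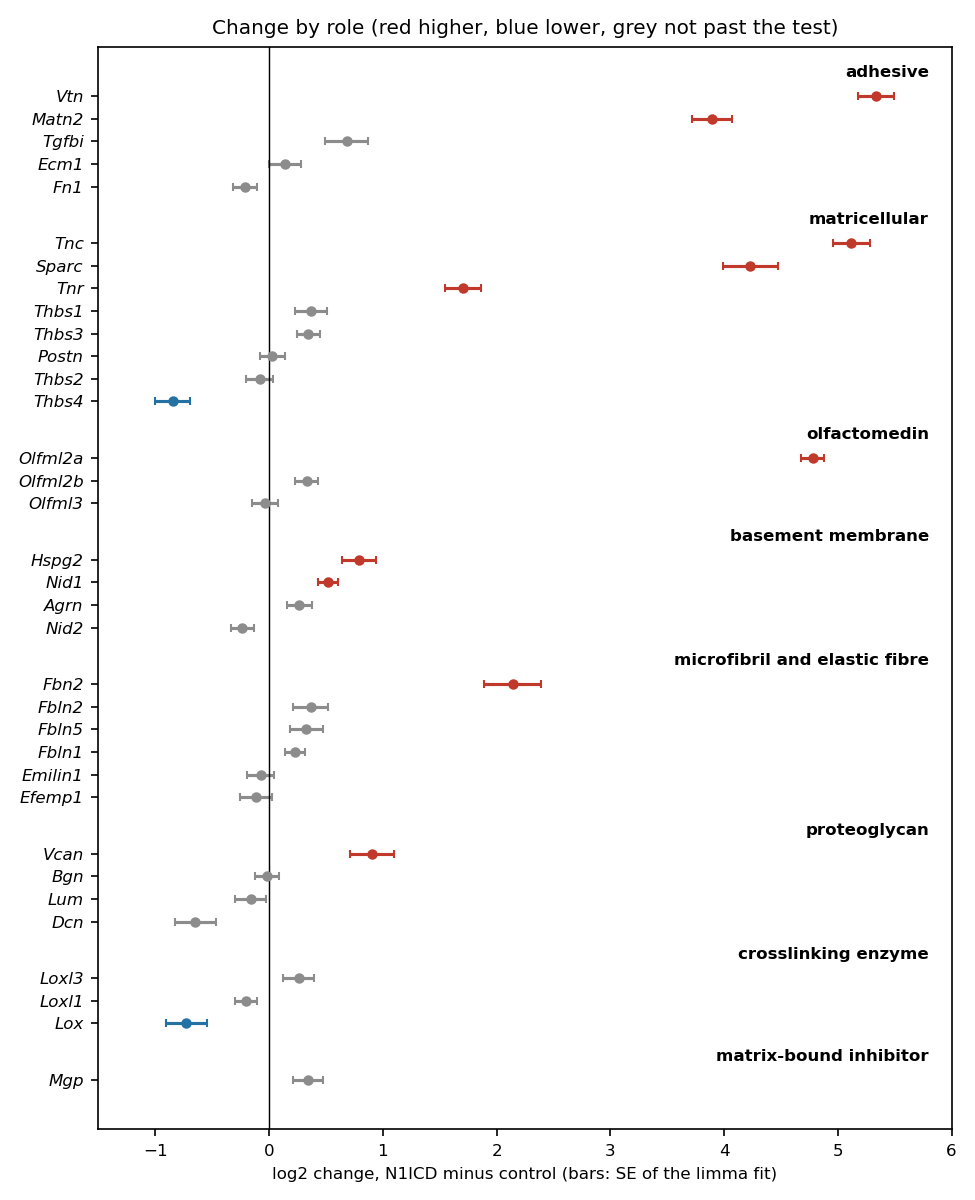
Log2 change, N1ICD minus control, of the 34 measured genes grouped by role, with bars of 1 SE of the limma fit and 3 arrays per group. Red points passed the test upward and blue points downward. The changes above 3 belong to the adhesive, matricellular and olfactomedin groups, and Lox and Thbs4 are the genes past the test on the left.

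The change of a gene was set against that of a relative by taking the difference of their log2 values within each array. These 5 pairs were picked with the values in view. The change of Olfml2a exceeded that of Olfml2b by 4.45 and that of Olfml3 by 4.81, the change of Tnc exceeded that of Tnr by 3.41, and that of Nid1 exceeded that of Nid2 by 0.75. The change of Thbs4 minus that of Thbs3 was -1.19. In each of the 5 pairs the N1ICD and control arrays did not overlap in this difference. The exact two-sided permutation p was 0.1 for each, not adjusted over the 5 pairs, and 0.1 is the smallest that 3 arrays against 3 can give.

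Basement membrane genes changed by less than 2-fold. Of 4, 2 rose. Nid1, which encodes nidogen 1, a connector of laminin and collagen IV networks, measured 9.83, 9.74 and 9.84 in N1ICD arrays, against 9.26, 9.29 and 9.30 in control arrays. The replicates lay close together, and Nid1 rose 1.43-fold (0.52 ± 0.09, adjusted p = 0.0113), with a log2 change of 0.48 at a second probe set. Hspg2 encodes the heparan sulfate proteoglycan perlecan and measured 7.15, 7.71 and 7.24 in N1ICD arrays, against 6.63, 6.63 and 6.46 in control arrays. It rose 1.73-fold (0.79 ± 0.15, adjusted p = 0.0194), and the call was lost without control replicate 2 (adjusted p = 0.056) or control replicate 3 (adjusted p = 0.0706). Nid2 (-0.24 ± 0.10, adjusted p = 0.242) and agrin, Agrn (0.27 ± 0.11, adjusted p = 0.232), did not pass the test, though the groups of both did not overlap.

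Of 6 measured microfibril and elastic fibre genes, 1 rose. Fbn2, the fibrillin of developing tissue, measured 8.76, 7.90 and 8.0 in N1ICD arrays, against 6.47, 5.94 and 5.83 in control arrays. N1ICD replicate 1 and control replicate 1 were each the highest of their group, and the groups stood apart, with a 4.41-fold rise (2.14 ± 0.25, adjusted p = 0.00175). Fbln1, Fbln2 and Fbln5 encode fibulins, which join elastic fibres and basement membranes. Their log2 changes were 0.23, 0.37 and 0.33 (adjusted p = 0.188, 0.234 and 0.264). Emilin1 (-0.07) and Efemp1 (-0.11) lay near 0 (adjusted p = 0.794 and 0.728).

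Among 4 proteoglycans, 1 rose. Vcan encodes versican, a large chondroitin sulfate proteoglycan that binds hyaluronan, and measured 10.84, 10.64 and 10.42 in N1ICD arrays, against 9.56, 10.16 and 9.48 in control arrays. Control replicate 2 came nearest to the N1ICD arrays, without overlap. The rise was 1.87-fold (0.90 ± 0.19, adjusted p = 0.029), which did not stay past the test with any 1 of these arrays absent: control replicates 1 and 3 and N1ICD replicates 1 and 2 (adjusted p from 0.0866 to 0.101). The small leucine-rich proteoglycan decorin, Dcn, averaged 5.30 ± 0.26 in N1ICD arrays and 5.95 ± 0.30 in control arrays (SD, n = 3 each). Its log2 change of -0.65 (95% interval -1.06 to -0.24) did not pass the test (adjusted p = 0.0752). Biglycan, Bgn (-0.02 ± 0.11, adjusted p = 0.957), and lumican, Lum (-0.16 ± 0.14, adjusted p = 0.596), overlapped between groups.

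Of the 3 measured crosslinking enzymes, 0 rose by limma, also at an unadjusted p under 0.05, and 1 fell. Lox, the founding lysyl oxidase, measured 5.73, 5.45 and 5.60 in N1ICD arrays, against 6.62, 5.92 and 6.42 in control arrays. It fell by 0.73 on the log2 scale (SE 0.18, adjusted p = 0.0495), just inside the threshold. The call was lost without each array other than control replicate 2 (adjusted p from 0.0876 to 0.169). Loxl1 (-0.20 ± 0.10, adjusted p = 0.299) and Loxl3 (0.26 ± 0.13, adjusted p = 0.34) did not pass the test. Mgp, an inhibitor of matrix calcification, had a log2 change of 0.34 ± 0.13 (adjusted p = 0.186).

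The 22 genes that did not pass the test had log2 changes between -0.65 and 0.68, 12 above 0 and 10 below. For 20 of them the 95% interval of the change lay within 1 log2 unit of 0 on both sides. The exceptions were Tgfbi, with an upper bound of 1.12, and Dcn, with a lower bound of -1.06. The 6 largest rises (Vtn, Tnc, Olfml2a, Sparc, Matn2 and Fbn2) had control means below every array median, where RMA compresses differences, so their fold values hold for the RMA scale. In 12 of the 34 genes the means of both groups lay below every array median, and a change of such a gene could have been missed. In a bulk sample, fewer cells expressing a gene and less RNA per cell cannot be told apart.

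Markers of other cell types were read on the same arrays. Over all genes, 3.82% were called higher and 3.27% lower, and the groups did not overlap for 26.1%. In lists of 8 to 12 markers, 1 call carries little information. Endothelial markers averaged 5.96 to 6.02 per N1ICD array and 5.50 to 5.60 per control array, with 2 of 10 higher, Kdr (3.04) and Tek (1.06) on the log2 scale. The 8 others did not pass the test, and their means lay below every array median in both groups. Emcn had a log2 change of 0.30 (limma adjusted p = 0.244). Cdh5, Pecam1, Tie1, Cldn5, Vwf, Esam and Egfl7 had log2 changes between -0.08 and 0.09. Smooth muscle and pericyte markers averaged 6.45 to 6.54 per N1ICD array and 5.81 to 6.10 per control array, with 1 of 8 higher, Kcnj8 (2.62). All 8 log2 changes lay above 0. Myh11 (0.73, limma adjusted p = 0.0597) and Tagln (0.55, adjusted p = 0.12) did not pass the test. Groups did not overlap for 3 of these 8 markers: Kcnj8, Myh11 and Tagln. Fibroblast markers averaged 5.65 to 5.79 per N1ICD array and 5.61 to 5.64 per control array. Of 12, 1 was higher (Pdgfrb, 0.89) and 1 lower (Pdgfra, -0.74), and 7 log2 changes lay above 0 and 5 below. Fap (0.93, limma adjusted p = 0.0786) and Thy1 (0.27, adjusted p = 0.169) did not pass the test. Groups did not overlap for 5 of the 12 fibroblast markers: Pdgfra, Pdgfrb, Fap, Thy1 and Col3a1. Col1a1, Col1a2 and Col3a1 had log2 changes of -0.13, 0.13 and 0.14. Macrophage markers averaged 5.07 to 5.19 per N1ICD array and 5.03 to 5.14 per control array, with 1 of 10 higher (Lyz2, 0.52). Groups did not overlap for 2 of the 10 macrophage markers, Lyz2 and Itgam. The call of Pdgfra was lost without any 1 of 4 arrays and that of Lyz2 without any 1 of the 6. No listed marker can reach 0 on the RMA scale, so absence could not be read directly. Neuroendocrine markers, those of the line's own type, averaged 9.43 to 9.56 per N1ICD array and 9.64 to 9.72 per control array over 12 genes. Of these, 2 were higher, Chga (0.64) and Ncam1 (0.53), and 3 were lower, Dll3 (-1.43), Insm1 (-0.89) and Nkx2-1 (-0.48), on the log2 scale. The call of Chga was lost without any 1 of 4 arrays, and those of Ncam1 and Nkx2-1 without any 1 of 5. The part of these markers in the matrix changes was not tested.

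Other matrix genes were read from further lists to place the members among related genes. These lists were also chosen with earlier results of these arrays known. Their shares describe the lists and are no independent support. Of 75 measured matrix glycoproteins and proteoglycans outside the 39, 10 rose (13.3%, against 3.82% of all genes) and 2 fell (2.67%, against 3.27% of all genes), with a median log2 change of 0.10. Eln, the elastin gene, measured 9.44, 9.76 and 9.61 in N1ICD arrays, against 7.22, 7.61 and 7.53 in control arrays, a 4.44-fold rise (2.15 ± 0.14, adjusted p = 6.13e-05). Mfge8, an integrin-binding protein of apoptotic cell clearance, rose 3.33-fold, and the brain proteoglycans Ncan and Bcan rose 3.23-fold and 2.46-fold. Frem2, Hmcn1, Nell2 and Spon1 rose by 1.56, 1.37, 1.11 and 1.01 on the log2 scale. The falls, named after their values were seen, were Spock3 (-0.87 ± 0.11, adjusted p = 0.003) and Podn (-0.80 ± 0.11, adjusted p = 0.00449).

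Matrix crosslinking and assembly enzymes outside the 39 changed in both directions, with 5 of 27 higher (18.5%) and 2 lower (7.41%), against 3.82% and 3.27% of all genes, and a median log2 change of 0.14. Has2, a hyaluronan synthase, measured 8.17, 7.91 and 7.91 in N1ICD arrays, against 6.35, 5.62 and 6.07 in control arrays, a 3.95-fold rise (1.98 ± 0.18, adjusted p = 0.000444). Has3, another hyaluronan synthase, fell by 0.46 (SE 0.10, adjusted p = 0.0277), a call lost without each array other than N1ICD replicate 1 (highest adjusted p = 0.107). The collagen-modifying hydroxylases Plod2 and P4ha2 rose by 1.16 and 0.90, the transglutaminase Tgm2 by 0.79 and the peroxidase Pxdn, which crosslinks collagen IV, by 0.68 on the log2 scale. Tll1, a tolloid-like procollagen protease, fell by 0.72 (adjusted p = 0.0203), a call that needed N1ICD replicates 1 and 2 and control replicates 2 and 3 (adjusted p up to 0.086 with one of them absent).

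Surface receptors of matrix glycoproteins had 8 of 33 higher (24.2%) and 3 lower (9.09%), against the same shares of all genes, and a median log2 change of 0.16. The glypican Gpc4, a heparan sulfate proteoglycan of the cell surface, measured 8.22, 8.08 and 8.15 in N1ICD arrays, against 5.32, 4.68 and 5.24 in control arrays, an 8.39-fold rise (3.07 ± 0.17, adjusted p = 2.55e-05). Cntn1, a neural receptor that binds tenascin R, rose 3.94-fold (1.98 ± 0.16, adjusted p = 0.000247), and the hyaluronan receptor Cd44 rose 3.22-fold. The syndecan Sdc2 rose by 1.52, a call lost without N1ICD replicate 2 (adjusted p = 0.0559), the integrin subunit Itga8, which pairs with beta 1 to bind RGD ligands, by 1.28 and the endocytic receptor Lrp1 by 0.92. The vitronectin receptor subunits Itgb5 and Itgb3 rose by 0.71 and 0.62. Itgav, the alpha subunit that pairs with both, had a log2 change of 0.006 (SE 0.14, adjusted p = 0.991) and a control mean below every array median. The call of Itgb5 needed N1ICD replicates 2 and 3 and control replicates 1 and 3 (adjusted p up to 0.104 with one absent), and that of Itgb3 every array but control replicate 1 (up to adjusted p = 0.113). Itga4 fell by 0.80, Gpc2 by 0.58 and Gpc1 by 0.55, and these calls were lost without N1ICD replicate 2 (Itga4 also without N1ICD replicate 3, Gpc2 also without N1ICD replicate 1 or control replicates 2 or 3, and Gpc1 also without N1ICD replicate 3 or any control array). Itgb3, Itgav, Gpc1 and Gpc2 were named after their values were seen.

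In the plasminogen and thrombin system, whose proteases cut matrix proteins, 0 of 12 genes rose by limma (1 at an unadjusted p under 0.05) and 2 fell (16.7%). Over all genes 3.82% rose and 3.27% fell, so among 12 genes a count of 0 in one direction carries little information. The urokinase gene Plau measured 6.33, 6.16 and 5.78 in N1ICD arrays, against 6.94, 6.75 and 7.08 in control arrays and fell by 0.83 (SE 0.16, adjusted p = 0.0174), a call that needed N1ICD replicate 2 and control replicates 1 and 3 (adjusted p up to 0.0632 with one absent). The thrombin receptor F2r measured 9.78, 9.64 and 9.82 in N1ICD arrays, against 10.35, 10.29 and 10.30 in control arrays and fell by 0.57 (SE 0.09, adjusted p = 0.00978).

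**Figure D3:**
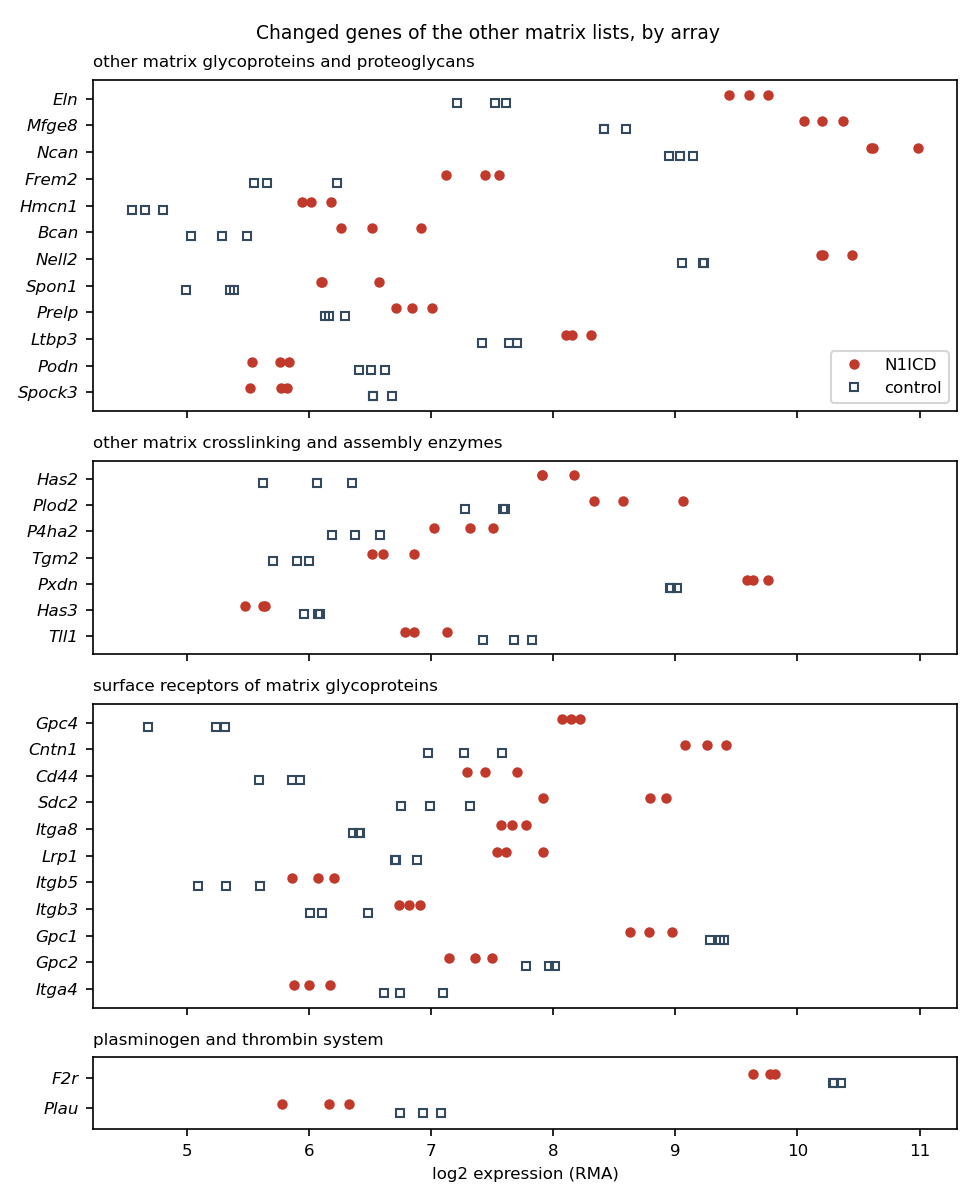
Log2 expression (RMA) on each array of the genes past the test in 4 further lists, with N1ICD arrays as filled circles and control arrays as open squares. The 3 N1ICD arrays lie on one side of the 3 control arrays in every gene shown, with Gpc4 8.39-fold higher and Eln 4.44-fold higher in N1ICD.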

How the data were processed

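Total RNA of 6 samples was hybridized to Affymetrix Mouse Gene 2.0 ST arrays. The deposited values are log2 expression per probe set after RMA by the authors, per the submitters' processing notes, which give no version. Base 2 was taken as RMA's own, and the highest value is 14.09. No source used here gives the genome build. RMA normalizes the arrays to each other, so total RNA content was not measured. Of 41345 probe sets, the platform annotation pairs 23521 with 1 symbol and 1814 with several, and 16010 are not listed there. The brightest single-symbol probe set stood for each of 22180 genes, and no dim gene was removed.

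Differences are N1ICD minus control, from limma 3.58.1 in R 4.3.3 (lmFit, eBayes, two-sided, Benjamini-Hochberg over all genes, threshold 0.05). For log2 changes ± gives the fit's SE, and intervals are at 95%. Alternatives were repeated quantile normalization, equal array medians, leaving out the dimmest 25% of genes, the mean over probe sets, an intensity trend with robust eBayes, array weights, a replicate block, a threshold of 0.01, and each array left out in turn. On simulated data for this comparison with 22180 genes, 16.4%, 74.6% and 93.9% of genes changed by 0.5, 1 and 2 log2 units were called. In the simulation 200 genes were changed, fewer than the 1574 called in the data. The Benjamini-Hochberg cutoff depends on how many genes change, so these shares need not hold for the data. The number of arrays limits the precision.

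The members and lists were chosen with earlier results of these data known. Every member is named. Of each further list up to 8 changed genes were named by size, and any others were named after their values were seen. Some further listed genes are not reported here. Sequences are from RefSeq (GRCm38.p6). Permutation tests used scipy 1.17.1 and figures matplotlib 3.10.9.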

Additional observations from a re-analysis of the deposited data

How the results depend on the processing

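The count of members that rose lay between 7 and 12 under the 8 alternatives with all arrays and between 8 and 10 with 1 array left out; 8 of the 10 kept their call without any 1 array, the exceptions being Hspg2 and Vcan. The count that fell was 1 after repeated quantile normalization, 1 with array weights, 0 at an adjusted p under 0.01 and 0 to 2 with 1 array left out. No member that passed the test in any of these fits changed direction. Further members passed under some alternatives: Dcn with equal medians (adjusted p = 0.041) and, together with Tgfbi, with dim genes left out, where 16635 genes remained, or with an intensity trend. Tgfbi also passed with array weights (adjusted p = 0.0452). Thbs3 passed with dim genes left out (adjusted p = 0.048) and Olfml2b with the trend (adjusted p = 0.0337). Over all genes, 460 rose and 208 fell at an adjusted p under 0.01, and 1227 fell with the trend, against 848 and 726. With 1 array left out, 548 to 709 genes rose and 275 to 585 fell. In the same fits 9 to 11 other glycoproteins rose and 2 to 3 fell, 5 assembly enzymes rose in every fit and 0 to 2 fell, 5 to 7 receptors rose and 0 to 3 fell, and of the plasminogen list 0 rose and 1 to 2 fell. At an adjusted p under 0.01, 0 assembly enzymes, 0 receptors and 1 plasminogen gene fell and 5 receptors rose. The causes were not tested.

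Deviations from the group means of N1ICD and control samples with the same replicate number correlated across genes at 0.232, 0.00831 and 0.201 for numbers 1, 2 and 3. The correlation was -0.197 between N1ICD replicate 1 and control replicate 3, and -0.235 between N1ICD replicate 3 and control replicate 1. N1ICD replicate 2 correlated best with control replicate 3, at 0.0221. Each deviation was taken from its own group's mean, so these correlations constrain each other and are not separate evidence. Whether the labels' numbers mark pairs was not tested, and the main fit took no pairs. With the replicate number as a block, 10 members rose and 3 fell, Dcn being the further one (adjusted p = 0.0359).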
